A study of Homo sapiens with 6 samples.

Results

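The genes described here encode the mitochondrial protein import machinery, and they were chosen by name: every gene of the count table whose symbol starts with TIMM or TOMM, together with PAM16, DNAJC19, DNAJC15, GRPEL1, GRPEL2, PMPCA, PMPCB, MIPEP, SAMM50, MTX1, MTX2, CHCHD4 and GFER. They numbered 39 of the 19845 genes in the table. Of these, 37 passed the expression filter and were tested, and TOMM6 and TOMM20L did not pass it. The RNA came from Molm13 cells, a human acute myeloid leukemia line with a rearranged MLL gene. The cells were made to express Cas9 and transduced by lentivirus with the ipUSEPR vector, which carries 1 guide RNA and puromycin resistance. Control cells carried sgCtrl and depleted cells carried sgCOX4I1, which targets cytochrome c oxidase subunit 4 isoform 1, with 3 libraries in each group and a different guide in each library. All 6 libraries share the Cas9 transgene and the vector. The published methods describe puromycin selection for the library screens and do not state it for the RNA-seq cells. The time between transduction and harvest was not given in the sources used here. The comparison addresses how the nuclear genes that bring proteins into mitochondria are expressed once this Complex IV subunit is depleted.

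Almost all mitochondrial proteins are made in the cytosol and enter the organelle through these complexes. The TOM complex of the outer membrane recognises precursors and passes them through the TOMM40 channel. From there, the SAM complex inserts barrel proteins into the outer membrane, the MIA pathway folds small proteins of the intermembrane space by forming disulfide bonds, small TIM chaperones escort hydrophobic precursors, TIM22 inserts carriers into the inner membrane, and TIM23 with its PAM motor pulls presequence proteins into the matrix, where peptidases remove the presequence. Movement through TIM23 needs the membrane potential across the inner membrane, which respiration builds. Most nuclear-encoded subunits of Complex IV reach the mitochondrion by these routes.

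The total count was between 17241014 and 30861943 per library, the scaling factors computed by TMM lay between 0.987 and 1.01. Libraries of the same group were further apart than sampling noise allows, at 11.0 to 27.5 chi-square units per degree of freedom. Levels are given as CPM, the counts-per-million of the TMM-scaled library. COX4I1 itself was at 513, 502 and 463 CPM in sgCtrl #1, #2 and #3 and at 132, 378 and 133 CPM in sgCOX4I1 #1, #2 and #3, -1.21 on the log2 scale with a standard error of 0.29 (quasi-likelihood test of edgeR, p adjusted by the Benjamini-Hochberg method = 0.0512). The groups did not overlap, and sgCOX4I1 #2 kept far more of the transcript than sgCOX4I1 #1 and #3. Transcript left after a Cas9 cut does not measure protein, and the paper's immunoblots reported less COX4I1 protein with 3 sgCOX4I1 guides. Without sgCOX4I1 #2 the log2 fold change was -1.90 and COX4I1 passed the test. All 9 myeloid markers were expressed in every library, at 33.4 CPM or more, whereas the 3 T cell, 3 B cell and 3 erythroid markers stayed at or below 0.706 CPM and KRT8, at 3.65 CPM or less, was the highest of the 4 epithelial or stromal markers. Among the myeloid markers MPO fell by 1.06 on the log2 scale in sgCOX4I1, and LYZ, with overlapping groups, had a log2 fold change of 0.77 that did not pass the test. The sum of all 9 ranged from 3320 to 4088 CPM in sgCtrl and from 3823 to 4978 CPM in sgCOX4I1, and its part in the values below was not tested.

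None of the 37 tested import genes passed an adjusted p of 0.05 in the edgeR test, adjusted over all genes, where 2.08% of all 11861 genes tested passed, 1.06% higher and 1.02% lower. DESeq2 and limma-voom also called 0 of the 37, where they called 3.84% and 2.12% of all genes. With the replicate number as a block, which the labels do not give as a pairing, edgeR called 5 and 11.9% of all genes. These 5 were GRPEL2, MIPEP, TIMM44, TIMM8B and TOMM34. In the main test without a block, 4 had an unadjusted p under 0.05, namely GRPEL2, TOMM34, MIPEP and TIMM44. All 4 were higher in sgCOX4I1, against 17.3% of all genes with such a p, 8.9% higher and 8.41% lower. Non-overlapping groups were seen for 5 of the 37, the same 4 genes and TOMM70, all higher in sgCOX4I1, or 13.5%, where 21.6% of all genes did not overlap, 11.2% higher and 10.4% lower. The share of import genes that separated the groups was thus below that of the table in both directions together and near it on the higher side, where all of them lay. The median log2 fold change of the 37 was 0.055, with a range from -0.20 for TOMM5 to 0.33 for GRPEL2, against a median of -0.0023 over all genes tested. Of the 37, 24 were above 0, or 64.9%, against 49.4% of all genes. In bulk RNA, fewer cells with a transcript and less of it per cell cannot be told apart, and these counts measure neither protein nor import.

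The size of the change was bounded by the 95% interval of each gene, taken singly. The interval stayed within 2-fold either way for all 37 tested genes, within 1.5-fold for 33 and within 1.25-fold for 22. The 4 wider ones were TOMM5, PAM16 and DNAJC15, which had few counts or spread widely between libraries, and CHCHD4, whose interval reached a fold of 1.53. The interval included no change for 33 of the 37. When sgCtrl #1 was left out, MIPEP was called (log2 fold change 0.40, adjusted p = 0.0228 by edgeR, against a range of 0.00904 to 0.368 over all alternatives), where 4.66% of all genes were called. Leaving out any other library, sgCOX4I1 #2 with its higher COX4I1 transcript included, called none. In those fits few genes of the whole table were called, from 0.2% without sgCtrl #2 to 2.21% without sgCtrl #3, with 0.425% without sgCOX4I1 #2.

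**Figure D1:**
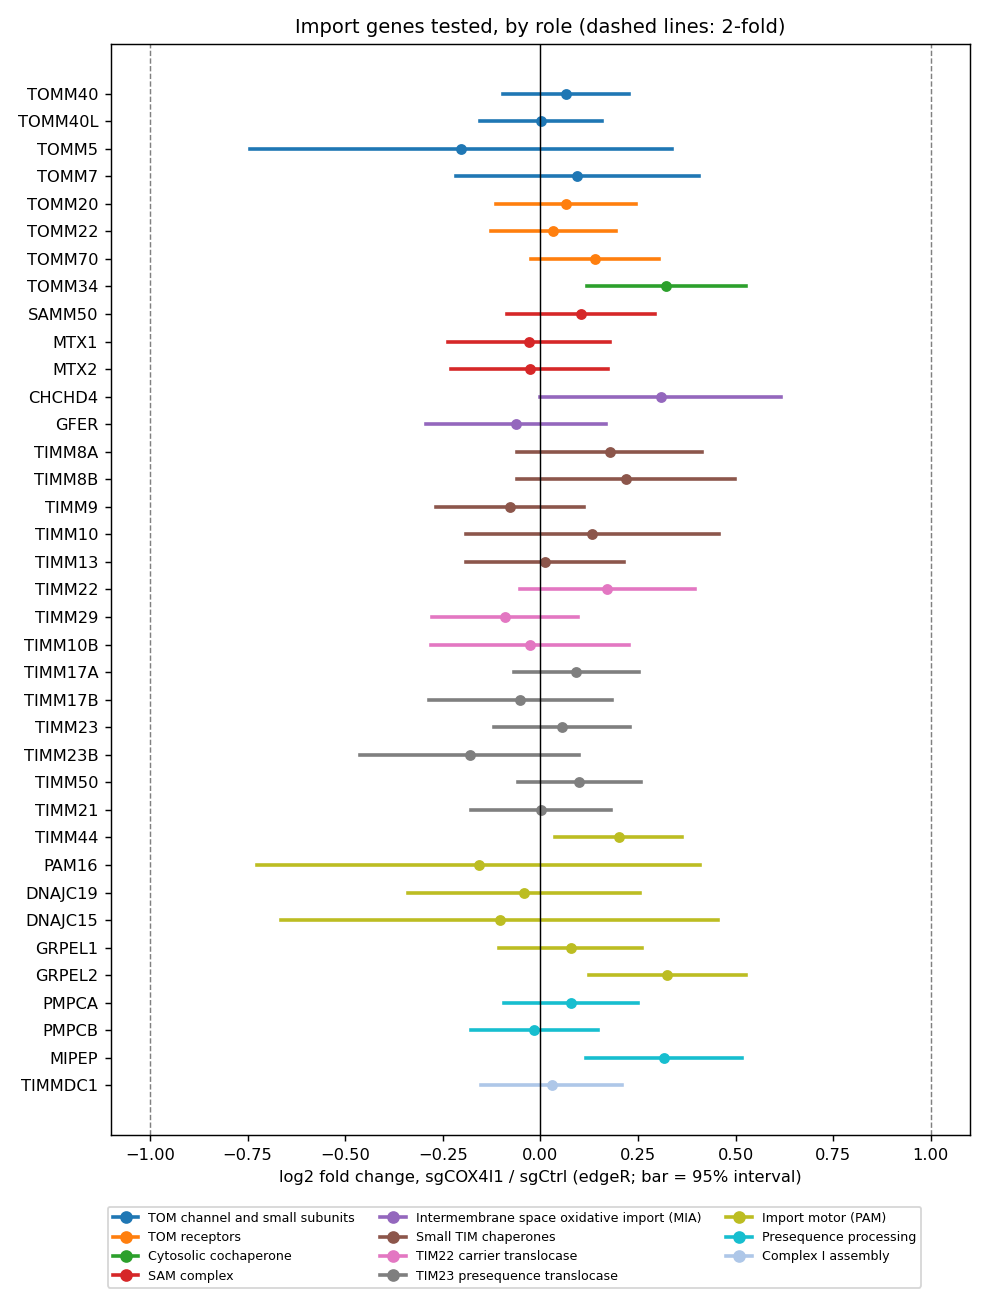
Log2 fold change of each tested import gene (y axis, grouped and coloured by role) between sgCOX4I1 and sgCtrl (x axis), with points for edgeR's estimate and bars for its 95% interval from 3 libraries per group. All 37 bars lie inside the dashed lines that mark 2-fold, and those of GRPEL2, TOMM34, MIPEP and TIMM44 lie to the right of 0.

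At the outer membrane, TOMM40, the channel through which nearly all precursors pass, was at 192, 188 and 184 CPM in sgCtrl #1, #2 and #3 and at 190.3, 214 and 186 CPM in sgCOX4I1 #1, #2 and #3. Only sgCOX4I1 #2 stood above the sgCtrl libraries, and the log2 fold change was 0.07 (standard error 0.075). TOMM40L, a paralog of the channel, hardly varied, with 57.9, 58.4 and 58.3 CPM in sgCtrl and 60.001, 58.2 and 56.8 CPM in sgCOX4I1. TOMM20, the receptor that binds presequences, had the highest level of all import genes, at 603, 533 and 534 CPM in sgCtrl and 622, 578 and 548 CPM in sgCOX4I1, and the groups overlapped. Its paralog TOMM20L was at or below 0.579 CPM in every library, with between 1 and 13 counts, and was not tested.

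TOMM70, the receptor for carrier precursors that dock with their cytosolic chaperones, was at 99.1, 86.7 and 94.3 CPM in sgCtrl and at 106, 99.5 and 103 CPM in sgCOX4I1. The groups did not overlap, but only narrowly, and the log2 fold change of 0.14 (standard error 0.076) did not pass the test, with an adjusted p of 0.368 from edgeR. The central receptor TOMM22 had a log2 fold change of 0.03, and the small subunits TOMM7 and TOMM5 had 0.09 and -0.20, with standard errors of 0.14 and 0.25. TOMM6, another small subunit, was listed at 0 counts in all 6 libraries, which allows up to 0.0972 to 0.174 CPM from counting error alone. All of its exonic bases are shared with another annotated gene on the same strand, so nothing about its expression can be read from the zeros.

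TOMM34, a cytosolic cochaperone that holds precursors with the heat shock proteins before import, was at 26.3, 24.5 and 28.4 CPM in sgCtrl #1, #2 and #3. In sgCOX4I1 #1, #2 and #3 it was at 31.0, 34.3 and 34.0 CPM. Every sgCOX4I1 library lay above every sgCtrl library, 1.25-fold on the fitted mean (95% interval 1.09 to 1.44, log2 fold change 0.32, standard error 0.094), and the difference missed the threshold with an adjusted p of 0.0952 by edgeR. The SAM complex, which inserts barrel proteins into the outer membrane, showed no such separation. Its core SAMM50 was at 46.0, 39.5 and 41.1 CPM in sgCtrl and 48.3, 43.5 and 44.4 CPM in sgCOX4I1, with overlapping groups. The metaxins MTX1 and MTX2, which cap that complex, had log2 fold changes of -0.03 each, with standard errors of 0.096 and 0.093, and MTX1 turned to 0.04 with a correction for GC content.

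In the intermembrane space, CHCHD4, the oxidoreductase that traps cysteine-rich precursors, was at 16.5, 16.0 and 12.7 CPM in sgCtrl and 22.0, 18.3 and 15.7 CPM in sgCOX4I1. Its mean was higher by 0.31 on the log2 scale (standard error 0.14, adjusted p = 0.291 by edgeR), but sgCOX4I1 #3 lay below sgCtrl #1 and #2, so the groups overlapped. GFER, the sulfhydryl oxidase that recharges CHCHD4, stood at -0.06 on that scale (standard error 0.11). The small TIM chaperones were TIMM8A, TIMM8B, TIMM9, TIMM10 and TIMM13, with log2 fold changes between -0.08 for TIMM9 and 0.22 for TIMM8B. TIMM8B was at 48.3, 42.5 and 34.9 CPM in sgCtrl and 56.9, 49.0 and 40.7 CPM in sgCOX4I1, and within each group library #1 was the highest and library #3 the lowest. Its log2 fold change lay between 0.096 and 0.34 with each library left out. The adjusted p of TIMM8B was 0.412 by edgeR, and that of its paralog TIMM8A, at 16.6 ± 0.702 and 18.9 ± 1.57 CPM (SD, n = 3 libraries each), was 0.439.

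At the inner membrane, 9 of the genes chosen by name belong to the TIM22 and TIM23 translocases. None of these 9 had groups that did not overlap, where 21.6% of all genes did not overlap. AGK, a TIM22 subunit outside the choice by name, is given below with the other import genes. TIMM22, the carrier translocase itself, was at 21.0, 18.5 and 19.2 CPM in sgCtrl and 22.8, 22.9 and 20.5 CPM in sgCOX4I1, with a log2 fold change of 0.17 (standard error 0.10). TIMM29 and TIMM10B, its partners, had -0.09 and -0.03. TIMM23, the core of the presequence translocase, was at 89.0, 75.8 and 79.7 CPM in sgCtrl and 86.4, 87.7 and 80.0 CPM in sgCOX4I1, and the groups overlapped throughout. TIMM17A, which forms the translocase with TIMM23, was at 91.9, 103 and 91.9 CPM in sgCtrl and 103, 101 and 101 CPM in sgCOX4I1, so that sgCtrl #2 alone reached the sgCOX4I1 level. TIMM50, the receptor of the complex, and TIMM21, which links it to the respiratory chain, had log2 fold changes of 0.10 and 0.00 with standard errors of 0.074 and 0.084. TIMMDC1, a Complex I assembly factor related to these translocases, had a log2 fold change of 0.03.

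GRPEL2, one of the nucleotide exchange factors of the matrix Hsp70 that drives import, had the smallest p of the 39 genes. It was at 21.6, 22.0 and 21.2 CPM in sgCtrl #1, #2 and #3 and at 28.6, 26.5 and 26.2 CPM in sgCOX4I1 #1, #2 and #3. The sgCtrl libraries lay within 1 CPM of each other and all sgCOX4I1 libraries lay well above them. The fold was 1.25 (95% interval 1.09 to 1.44, log2 fold change 0.33, standard error 0.094), with an adjusted p of 0.0910 by edgeR, short of the threshold. TIMM44, which tethers the motor to the translocase and was chosen after its values were seen, was at 107, 112 and 104 CPM in sgCtrl and 123, 133 and 116 CPM in sgCOX4I1, without overlap, 0.20 higher on the log2 scale (standard error 0.076, edgeR adjusted p = 0.191). The rest of the motor did not separate the groups. PAM16 and DNAJC19, the J-protein pair that controls the Hsp70 cycle, had log2 fold changes of -0.16 and -0.04 with standard errors of 0.26 and 0.14.

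MIPEP, a matrix peptidase that trims some proteins after the presequence has been cut off, was at 40.2, 33.0 and 34.4 CPM in sgCtrl and 46.3, 42.8 and 44.7 CPM in sgCOX4I1. The groups did not overlap, with sgCtrl #1 closest to the sgCOX4I1 libraries, and the fold was 1.25 (95% interval 1.08 to 1.43, log2 fold change 0.32, standard error 0.093, adjusted p = 0.0955 by edgeR). The processing peptidase that makes the first cut is a dimer of PMPCA and PMPCB. PMPCA was at 128 ± 5.62 CPM in sgCtrl and 136 ± 11.9 CPM in sgCOX4I1, and PMPCB was at 69.6 ± 1.67 and 68.9 ± 4.11 CPM (SD, n = 3 libraries each). Neither differed by more than the spread between libraries.

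**Figure D2:**
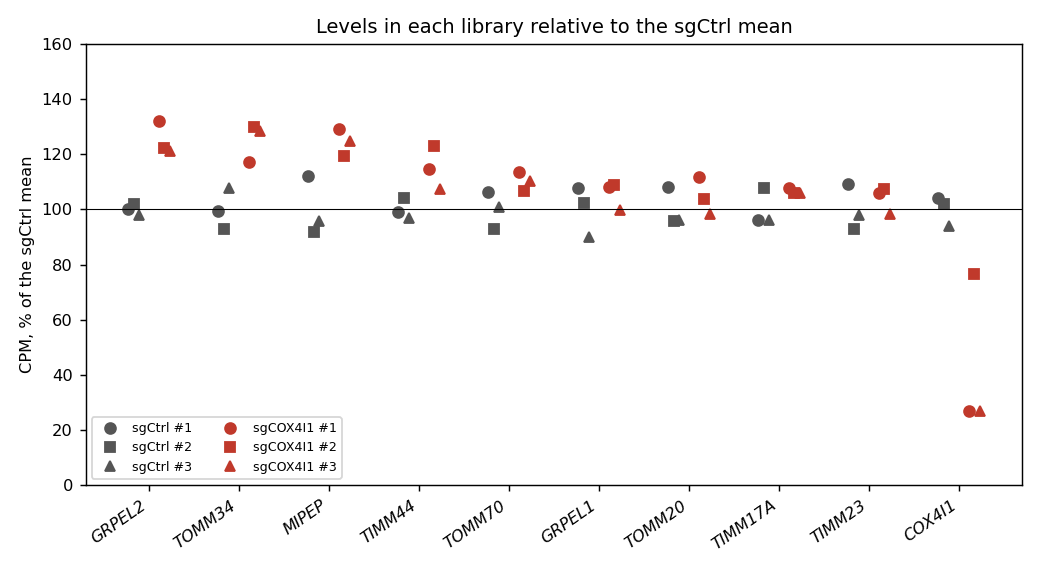
CPM in each library as a percent of the sgCtrl mean (y axis) for 9 import genes and COX4I1 (x axis), with grey symbols for sgCtrl, red for sgCOX4I1 and a symbol shape for each guide number. GRPEL2, TOMM34, MIPEP, TIMM44 and TOMM70 have all 3 red symbols above the 3 grey ones, GRPEL1, TOMM20, TIMM17A and TIMM23 do not, and COX4I1 falls to 26.7%, 76.7% and 27.0% in sgCOX4I1 #1, #2 and #3.

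Summed over the genes of a role, the import motor came to 228 ± 10.7 CPM in sgCtrl and 249.9 ± 9.81 CPM in sgCOX4I1 (SD, n = 3 libraries each), and the processing peptidases to 234 ± 7.32 and 249 ± 9.65 CPM. Neither of these sums overlapped between groups, with means at 109.8% and 107% of sgCtrl. Of single genes in the whole table, 21.6% did not overlap, 11.2% on the higher side, and no such share was computed for sums. Both sums hold genes already described. TIMM44 went from a mean of 108 to 124 CPM, GRPEL2 from 21.6 to 27.1 and MIPEP from 35.8 to 44.6. The means of PAM16, DNAJC19, DNAJC15 and PMPCB were lower in sgCOX4I1, so the sums do not show a change of a whole role. The sums of the TOM channel, the TOM receptors, SAM, MIA, the small TIM chaperones, TIM22 and TIM23 all overlapped, with means between 99.98% and 106% of sgCtrl. All 39 genes together came to 2662, 2549 and 2436 CPM in sgCtrl #1, #2 and #3, against 2768, 2733 and 2531 CPM in the sgCOX4I1 libraries in the same order, so that sgCOX4I1 #3 lay within the sgCtrl range.

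The 4 genes with an unadjusted p under 0.05 stand on different chromosomes, and their promoters are shown because these were the genes whose transcripts separated the groups most clearly. Each sequence runs 5′ to 3′ on the strand of the gene, from 250 bases before to 50 bases after the annotated start, as RefSeq gives it on GRCh38.p14. Capitals mark matches to any of 3 motifs, searched on both strands: GCGCA with any base and GCGC after it, bound by the nuclear respiratory factor NRF1, TGATGNAA, the CARE element bound by ATF4 with its partners, and CACGTG, the E-box.
GRPEL2, chr5:149345249-149345548, plus strand: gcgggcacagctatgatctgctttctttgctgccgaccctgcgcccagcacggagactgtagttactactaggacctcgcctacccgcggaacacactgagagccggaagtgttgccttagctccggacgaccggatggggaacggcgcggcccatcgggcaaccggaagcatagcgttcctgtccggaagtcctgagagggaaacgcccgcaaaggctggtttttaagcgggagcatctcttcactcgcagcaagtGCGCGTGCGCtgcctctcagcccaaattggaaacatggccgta
TOMM34, chr20:44960348-44960647, minus strand: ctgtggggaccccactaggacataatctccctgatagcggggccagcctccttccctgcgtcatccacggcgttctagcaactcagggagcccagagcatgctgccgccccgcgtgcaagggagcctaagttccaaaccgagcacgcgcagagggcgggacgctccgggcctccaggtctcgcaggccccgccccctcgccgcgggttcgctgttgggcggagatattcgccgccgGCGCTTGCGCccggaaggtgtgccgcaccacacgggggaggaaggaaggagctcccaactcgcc
MIPEP, chr13:23889351-23889650, minus strand: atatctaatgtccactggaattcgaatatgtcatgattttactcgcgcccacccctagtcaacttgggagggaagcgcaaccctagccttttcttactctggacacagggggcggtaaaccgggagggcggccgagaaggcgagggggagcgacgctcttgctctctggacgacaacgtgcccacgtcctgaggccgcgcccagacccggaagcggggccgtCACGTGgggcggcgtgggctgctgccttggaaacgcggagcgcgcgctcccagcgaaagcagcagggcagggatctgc
TIMM44, chr19:7943617-7943916, minus strand: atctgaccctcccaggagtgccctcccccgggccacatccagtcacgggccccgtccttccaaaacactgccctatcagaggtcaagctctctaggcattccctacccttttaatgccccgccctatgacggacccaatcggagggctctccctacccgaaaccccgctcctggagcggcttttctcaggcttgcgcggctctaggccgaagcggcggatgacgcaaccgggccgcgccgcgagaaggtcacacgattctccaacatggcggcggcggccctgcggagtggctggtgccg

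The NRF1 letters begin 7 bases after the start in GRPEL2 and 14 bases before it in TOMM34, the E-box begins 28 bases before the start in MIPEP, and TIMM44 holds none of the 3 motifs in this window. Promoters were found for 36 of the 39 import genes. Of these, 8 held the NRF1 letters, or 22.2%, namely CHCHD4, GRPEL2, PAM16, TIMM29, TOMM20, TOMM34, TOMM40 and TOMM7, where 12.1% of the 9251 promoters of tested genes and 6.28% of all 27305 promoters of this length held them. The CARE letters were in 2 of the 36, PMPCB and TIMM22, or 5.56%, against 1.64% of the promoters of tested genes and 3.67% of all promoters. The E-box was in 4, MIPEP, TIMM10, TIMM8A and TOMM20, or 11.1%, against 10.5% and 7.43%. No match to one motif overlapped a match to another in these promoters. A match is a description of the sequence and not a measured site.

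Several steps of import are served by a pair of paralogs or partner subunits, and the log2 ratio of their CPM within each library is free of the scaling between libraries. Only GRPEL1 and GRPEL2 gave a ratio whose groups did not overlap. The log2 ratio of GRPEL1 to GRPEL2 was 1.47, 1.37 and 1.24 in sgCtrl #1, #2 and #3 and 1.07, 1.19 and 1.08 in sgCOX4I1 #1, #2 and #3, a difference of -0.24 between the group means (p = 0.1 by a two-sided exact permutation test, which with 3 libraries in each group can go no lower, and 0.9 after adjustment over the 9 pairs). GRPEL2 thus made up 28.1% of the CPM of the pair in sgCtrl and 31.6% in sgCOX4I1. GRPEL1, the major exchange factor, was at 59.7, 56.8 and 49.9 CPM in sgCtrl and 60.001, 60.3 and 55.4 CPM in sgCOX4I1, with overlapping groups.

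The other ratios overlapped between groups. For TIMM17A to TIMM17B, alternative subunits of the presequence translocase, the log2 ratio was 1.66 ± 0.155 in sgCtrl (SD, n = 3 libraries) against 1.80 ± 0.136 in sgCOX4I1. TIMM17B alone had a log2 fold change of -0.05, which turned to 0.01 with the GC correction. TIMM23 exceeded TIMM23B by 1.77 ± 0.373 and 2.00 ± 0.210, and TIMM23B, a copy of TIMM23 elsewhere on chromosome 10, came to -0.18 as a log2 fold change (standard error 0.13). DNAJC19 exceeded DNAJC15, another J-protein of the motor, by 3.08 ± 0.268 and 3.12 ± 0.409, with DNAJC15 at 3.10 ± 0.995 and 2.90 ± 0.483 CPM. The ratios of TIMM8A to TIMM8B, TOMM40 to TOMM40L, TOMM20 to TOMM20L, PMPCA to PMPCB and MTX1 to MTX2 differed between groups by -0.04, 0.06, 0.02, 0.09 and 0.00, with the smallest exact permutation p among them at 0.5.

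**Figure D3:**
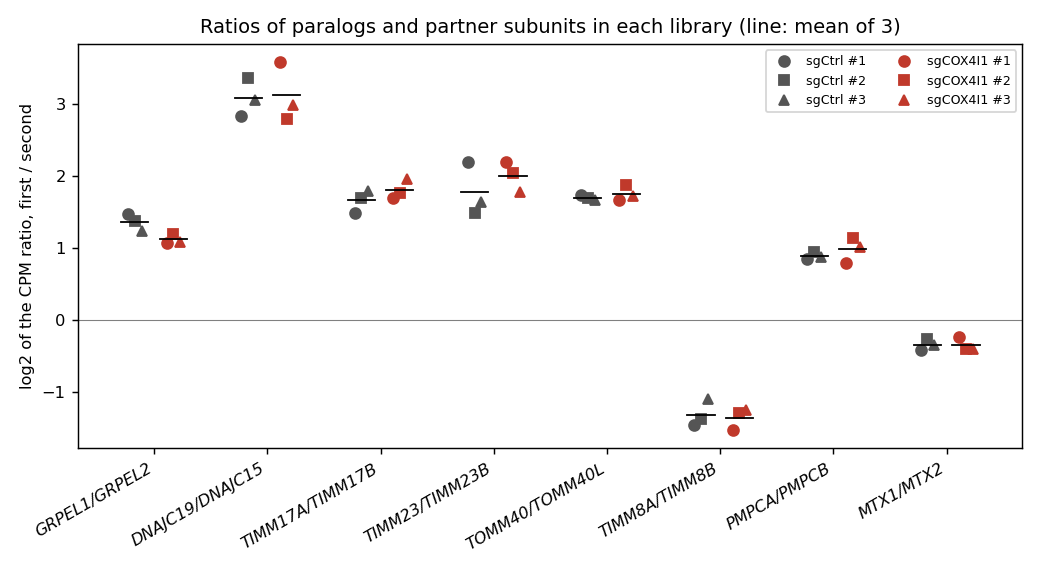
Log2 of the CPM ratio between the members of 8 pairs (x axis; TOMM20/TOMM20L, with at most 13 counts of TOMM20L, is not drawn) in each library (y axis), in grey for sgCtrl and red for sgCOX4I1, with a line at the mean of 3 libraries. The red symbols of GRPEL1/GRPEL2 lie at 1.07, 1.19 and 1.08, below the lowest grey one at 1.24, and the other pairs overlap.

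Per kilobase of the canonical transcript, a scale that allows genes to be compared, TOMM20 had 169.5 ± 12.2 CPM per kilobase and TOMM7 had 164 ± 33.2 in sgCtrl (SD, n = 3 libraries), and these top levels did not differ beyond their spread. TOMM40 followed at 106 ± 2.45, and TIMM13 at 72.2 ± 7.12, TIMM23 at 68.5 ± 5.69, TOMM22 at 61.5 ± 1.31 and PMPCA at 61.5 ± 2.70 formed a group in which neighbours lay within their spread. At the low end, GRPEL2 stood at 5.37 ± 0.102, TOMM5 at 5.82 ± 1.92 and TIMM22 at 6.14 ± 0.418, while DNAJC15 and TOMM20L were at 0.416 ± 0.133 and 0.415 ± 0.319. Transcripts of one complex were thus far from equal, with the TOM receptors TOMM20 at 169.5, TOMM22 at 61.5 and TOMM70 at 22.8 CPM per kilobase, and the order rests on the length of a single transcript per gene.

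The other genes of the import pathway were taken from a fixed list of 24, of which 23 were tested. In the edgeR test 0 of the 23 passed, with 5 at an unadjusted p under 0.05, all higher in sgCOX4I1, where 17.3% of all genes had such a p and 8.9% were higher. DESeq2 called 2 of the 23, HSPA8 and HSPA9, and 3.84% of all genes. The median log2 fold change was 0.089, 19 of the 23 were above 0, against 49.4% of all genes, and the groups did not overlap for 6, or 26.1%, all higher, against 21.6% of all genes in both directions and 11.2% on the higher side. HSPA9, the matrix Hsp70 that GRPEL1 and GRPEL2 serve, was at 521, 478 and 509 CPM in sgCtrl and 619, 596 and 607 CPM in sgCOX4I1, without overlap (log2 fold change 0.27, standard error 0.074, adjusted p = 0.0756 by edgeR). HSPA8, the cytosolic Hsp70 that delivers precursors, was at 1321, 1166 and 1155 CPM in sgCtrl and 1531, 1571 and 1420 CPM in sgCOX4I1, also without overlap (log2 fold change 0.31, standard error 0.088, adjusted p = 0.0871 by edgeR). HSP90AA1, the chaperone that docks on TOMM70, AGK, a lipid kinase and TIM22 subunit, and MTX3, another metaxin, had log2 fold changes of 0.22, 0.50 and 0.26 and did not overlap between groups, and AGK was low throughout, at 4.54 ± 0.212 and 6.44 ± 0.413 CPM (SD, n = 3 libraries each).

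Within each group, the import genes differed between libraries in a common way. Of the 37 tested genes, 30 were higher in sgCtrl #1 than in sgCtrl #3, 30 were higher in sgCOX4I1 #1 than in sgCOX4I1 #3, and 27 did both, or 73.0%, against 36.6% of all 11858 genes with a count in each library. The median log2 ratio was 0.11 in sgCtrl and 0.12 in sgCOX4I1, larger than the median change of 0.055 between the groups. Among the 6 with a canonical transcript under 1000 bases, TIMM10 had log2 ratios of 0.63 in sgCtrl and 0.45 in sgCOX4I1, TOMM7 had 0.59 and 0.53, TIMM8B had 0.47 and 0.48 and TIMM17B had 0.30 and 0.29. PAM16 and TOMM5, the rest of the 6, went the other way. Thus 4 of the 6 were higher in library #1 in both groups, or 66.7%, against 72.2% of all genes with so short a transcript. Among the 31 longer ones it was 23, or 74.2%, against 34.5% of all genes that long. Over all genes with a transcript under 1000 bases, the median ratios were 0.25 and 0.22, and what sets them was not tested. The ratios of PAM16, TOMM5, TIMM23B and TOMM34 went the other way in both groups, at -1.25 and -0.85, -1.01 and -0.32, -0.40 and -0.31, and -0.11 and -0.13. These differences between libraries of a group are part of the spread against which the groups were tested, since the main test used no block. Guide and replicate carry the same number in every library, so which of them these differences go with cannot be told apart.

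**Figure D4:**
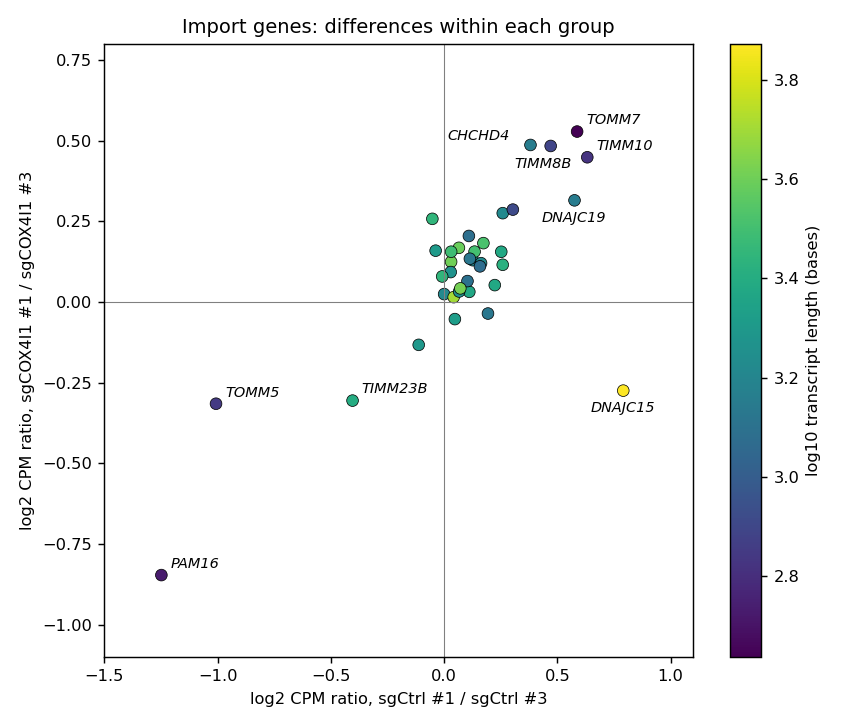
Log2 CPM ratio of library #1 to library #3 for each of 37 import genes within sgCtrl (x axis) and within sgCOX4I1 (y axis), coloured by the log10 length of the canonical transcript in bases. Most genes, 27 of the 37, lie in the upper right quadrant, with TIMM10, TOMM7, TIMM8B, CHCHD4 and DNAJC19 among the farthest out, while PAM16, TOMM5, TIMM23B and TOMM34 lie at the lower left.

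Positions and neighbours of these genes in GENCODE 44 on GRCh38 limit some of the values. PAM16, on the minus strand of chromosome 16 from 4331549 to 4355607, shares 76.8% of the 150-base windows of its canonical transcript with the read-through gene CORO7-PAM16, which was listed at 0 counts in all libraries, and TOMM5, on chromosome 9 from 37582646 to 37592604, shares 66.6% with overlapping genes. GFER, TIMM8B, TIMMDC1, TIMM23B, PMPCB, TOMM40L and TIMM13 share 38.0%, 32.0%, 29.1%, 27.2%, 17.04%, 13.7% and 12.3% with overlapping genes on either strand, and the other tested genes share less than 10%. MTX1 shares 29.9% of its windows with its pseudogene MTX1P1, and DNAJC19, TOMM40 and TOMM20 share 2.61%, 3.52% and 0.447% with genes elsewhere. GRPEL2, at 149345430 to 149354583 on chromosome 5 (plus strand), TOMM34, on the minus strand of chromosome 20 from 44942130 to 44960397, MIPEP, on the minus strand of chromosome 13 from 23730189 to 23889400, and TIMM44, on the minus strand of chromosome 19 from 7926718 to 7943667, share none of their windows with any other gene.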

How the data were processed

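RNA-seq libraries from 6 Molm13-Cas9 cultures were analysed, 3 sgCtrl and 3 sgCOX4I1. The authors deposited 1 table of whole-number read counts for 19845 gene symbols, without normalization. The submitters' processing notes name bcl2fastq 2.20.0.422, STAR 2.6.0a, edgeR and GRCh38, and the column and file names point to STAR, marked duplicates and HTSeq, whereas the published methods name Trimmomatic, Bowtie2 and RSEM. Unless told otherwise, HTSeq does not count a read that overlaps several genes or maps to several places. Columns were matched to samples by letter (C for sgCtrl, K for the knockout) and guide number, and all were used.

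Counts were tested in R 4.3.3 with edgeR 4.0.16 (TMM, filterByExpr, quasi-likelihood test without covariates, Benjamini-Hochberg over 11861 genes), a call being an adjusted p under 0.05. The standard error is the log2 fold change over the square root of F, and 95% intervals use edgeR's degrees of freedom. Tests were checked on simulated counts with changes larger than any of the import genes, so the check does not bear on changes this small. The import genes, the other lists and the rule for genes shown in every library (the member with the smallest p in each role, both genes of each pair, and the 5 other import genes with the smallest p) were chosen with earlier results of these data known. TIMM44 was added afterwards, as were the comparison between libraries of a group and the windows of 150 bases, which were matched exactly on both strands to GENCODE 44 transcripts. Canonical transcripts gave lengths for 18437 of the 19845 symbols. Nothing states that cultures were independent beyond their guides, so p-values measure the spread between these libraries. Alternatives were DESeq2 1.42.0, limma-voom with limma 3.58.1, no TMM, no count filter, at least 10 counts in every library, corrections for GC content and transcript length, the replicate number as a block, and each library left out.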

Additional observations from a re-analysis of the deposited data

How the results depend on the processing

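The median log2 fold change of the import genes stayed between 0.0067 and 0.096 under all 15 alternatives. The number of import genes called was 0 under 12 of them, where 0.2% to 3.84% of all genes were called. It was 5 with the replicate block (GRPEL2, MIPEP, TIMM44, TIMM8B and TOMM34, where 11.9% of all genes were called) and 4 with that block plus the GC correction (11.7% of all genes). With each library left out it was from 0 to 1 (MIPEP without sgCtrl #1, where 4.66% of all genes were called). The replicate numbers were not taken to pair the libraries, since the labels tie them to guides. The deviations of same-numbered libraries from their group means correlated at 0.38, -0.02 and 0.29, and sgCtrl #2 and sgCOX4I1 #2 each correlated best with another number. Those of sgCtrl #3 with sgCOX4I1 #1 and of sgCtrl #1 with sgCOX4I1 #3 correlated at -0.38 and -0.32. The remaining correlations lay between -0.10 and 0.13. Whether same-numbered libraries share an effect was not tested. With the replicate block 1408 genes of the whole table were called, 1385 with the GC correction added, and 57 in each with 2-fold, against 247 and 24; with no count filter these were 537 and 41, and DESeq2 called 456. With each library left out, the whole table gave from 24 (without sgCtrl #2) to 561 calls (without sgCtrl #1), and from 9 to 50 with 2-fold, with 51 and 13 without sgCOX4I1 #2 and 89 calls without sgCOX4I1 #3. Other import genes called were 2 with no count filter, with DESeq2 and with the length correction, 3 with the replicate block whether or not GC was corrected, and from 0 to 1 with each library left out. COX4I1 passed the test at a log2 fold change of -1.20 with no count filter and with the length correction, -1.40 with limma-voom, -1.39 with the replicate block, -1.38 with the block plus GC correction, and ranged from -1.90 to -0.95 with each library left out, passing without sgCtrl #1, sgCtrl #3 or sgCOX4I1 #2. It did not pass under the other 7 alternatives, DESeq2 (adjusted p = 0.237) and without sgCtrl #2 (0.272) or sgCOX4I1 #3 (0.125) among them. Genes near 0 changed sign without being called: TIMM17B at 0.011 and MTX1 at 0.042 with the GC correction, at 0.014 and 0.044 with the replicate block added, and with each library left out DNAJC19 (-0.19 to 0.088), DNAJC15 (-0.25 to 0.19), TIMM17B (-0.14 to 0.029), TOMM40L (-0.016 to 0.022), MTX1 (-0.085 to 0.027), MTX2 (-0.10 to 0.018), TIMMDC1 (-0.036 to 0.086) and PMPCB (-0.062 to 0.023). The cause of these shifts was not tested. Depth limits TOMM20L, TOMM5 and DNAJC15, which had 13, 130 and 91 counts or fewer in every library.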

Other observations

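Of the tested import genes, 4 share over 10% of their exonic bases with another annotated gene on the same strand, namely TOMM5 (18.9%), PAM16 (22.4%), TIMM23B (29.9%) and TIMM10B (13.2%), a grouping made after their values were seen. All were lower in sgCtrl #1 than in sgCtrl #3, with log2 ratios of -1.01, -1.25, -0.40 and -0.05, where 30 of the 37 import genes were higher. Between sgCOX4I1 #1 and #3 the ratios were -0.32, -0.85, -0.31 and 0.26, so that TIMM10B went the other way there. TOMM34, TOMM22 and TOMM40L were also lower in sgCtrl #1 than in sgCtrl #3, at -0.11, -0.04 and -0.008, yet share 0.12% or less on the same strand. PMPCB, which shares 7.68%, had a ratio of 0.065 in sgCtrl. PAM16, at 7.47 CPM in sgCtrl #1, 16.7 in sgCtrl #2 and 17.7 in sgCtrl #3, had a coefficient of variation of 40.5% within sgCtrl, the largest of the tested import genes, and the smallest was 0.438% for TOMM40L. What sets this spread was not tested.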
